A study of Homo sapiens with 6 samples.

Results

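The genes described are 50 genes of G2 and mitosis: mitotic cyclins and kinases, spindle, kinetochore and condensin genes, and a pair of transcription factors. Kinesins other than CENPE, counted with the kinetochore genes, were left out. The 50 genes were chosen by gene name, and no measured value enters the rule, but earlier results of these data were known. Of the 60675 gene rows in the table, 48 matched by name, and SGO1 and SGO2, listed under the older names SGOL1 and SGOL2, were matched by gene ID. All 50 had enough counts to be tested, with at least 170 estimated counts in every library.

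The samples were HT1080 cells, an established human fibrosarcoma line of wild-type genotype per the labels, which had received one of a pair of compounds, SW-113 or SW-138, each for 48 h at 1 µM. By its title the series asks how selective such inhibitors are for KDAC6, also called HDAC6, a lysine deacetylase found mostly in the cytoplasm. Total RNA depleted of ribosomal RNA was sequenced from 3 libraries per compound. An untreated or vehicle group is not analysed here, so the compounds could be set only against each other. "Higher" below means higher in SW-138 than in SW-113, which may come from either compound. The labels do not say that replicates were separate cultures, so p-values reflect the spread among these libraries alone, and that spread may be technical. In bulk RNA, fewer cells in a phase and less RNA per cell cannot be told apart.

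Genes of this group are switched on late in the cell cycle. CDK1 with cyclin A and cyclin B starts mitosis, the Polo and Aurora kinases build the spindle, and kinetochore proteins tie chromosomes to it. The spindle checkpoint then holds the anaphase-promoting complex until every chromosome is attached. Their transcription is known to be repressed in quiescent cells by the DREAM complex and driven in cycling cells by MYBL2 with MuvB and by FOXM1. Promoters of such genes are known for CCAAT boxes, bound by NF-Y, and for the cell cycle genes homology region, a short element bound by MuvB. Because most cells in a culture are not in G2 or mitosis, the summed level of these mRNAs is commonly read as a sign of how many cells are dividing.

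Promoters of 3 members are shown to let the shared elements be seen: ASPM, the member that passed the test, TOP2A, among the most abundant, and CCNB1, the classical mitotic cyclin. Each is a window of 250 bases before to 50 bases after a RefSeq gene start in GRCh38.p14, written 5′ to 3′ on the gene's strand. Capitals mark the box CCAAT, which reads ATTGG on the other strand, the element TTTGAA, which reads TTCAAA there, and the element TTTAAA, which is its own reverse complement. The windows are chr1:197146620-197146919 on the minus strand for ASPM, chr17:40417847-40418146 on the minus strand for TOP2A and chr5:69166900-69167199 on the plus strand for CCNB1.
ASPM: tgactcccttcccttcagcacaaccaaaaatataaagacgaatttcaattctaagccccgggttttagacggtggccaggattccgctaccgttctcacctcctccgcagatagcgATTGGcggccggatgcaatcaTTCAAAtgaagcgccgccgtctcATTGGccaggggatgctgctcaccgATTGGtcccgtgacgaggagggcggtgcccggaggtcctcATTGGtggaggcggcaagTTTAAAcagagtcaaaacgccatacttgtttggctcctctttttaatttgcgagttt
TOP2A: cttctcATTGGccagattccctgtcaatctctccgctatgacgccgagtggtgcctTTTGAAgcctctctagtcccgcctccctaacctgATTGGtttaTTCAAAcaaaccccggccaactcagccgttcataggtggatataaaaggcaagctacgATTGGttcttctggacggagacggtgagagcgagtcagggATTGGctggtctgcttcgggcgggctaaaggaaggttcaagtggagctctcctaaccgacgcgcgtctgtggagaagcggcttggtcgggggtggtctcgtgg
CCNB1: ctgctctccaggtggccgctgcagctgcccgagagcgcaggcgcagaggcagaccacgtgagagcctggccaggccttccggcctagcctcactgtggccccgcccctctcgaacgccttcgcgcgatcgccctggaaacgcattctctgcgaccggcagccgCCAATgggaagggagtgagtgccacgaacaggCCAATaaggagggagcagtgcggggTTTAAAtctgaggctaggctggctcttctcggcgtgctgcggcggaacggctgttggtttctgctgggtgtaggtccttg

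ASPM held 4 CCAAT boxes within 134 bases upstream of its start, a TTTGAA further upstream than 3 of them and a TTTAAA just before the start. TOP2A held 4 CCAAT boxes and 2 TTTGAA elements. CCNB1 held 2 CCAAT boxes and a TTTAAA. Over the members, 43 were in the RefSeq promoter table, with 58 windows, some of which overlap because a gene has several starts. AURKA, TTK, BUB3, UBE2C, BIRC5, TPX2 and FOXM1 were not matched. On either strand and counting overlapping matches, CCAAT was in 67.2% of the member windows and in 34.6% of all 35116 windows of the same length. At least 2 CCAAT boxes were in 39.7% and 10.8%. The element TTTGAA or its variant TTCGAA was in 60.3% of member windows and 16.4% of all windows. With TTTAAA added, which was chosen after windows had been seen, these shares were 74.1% and 25.1%. A match describes letters in a window and does not show binding.

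The labelled cell type matched its markers. All 6 fibroblast and mesenchymal markers were present, from 113 CPM (counts scaled to 1e+06 per library with TMM factors) for COL6A1 to 3860.5 CPM for VIM, and all 11 epithelial, leukocyte and endothelial markers lay at or under 0.39 CPM in every library. Library totals ran from 32771665 to 50871576 estimated counts. Log2 CPM correlated at 0.9877 to 0.9928 between replicates and at 0.9858 to 0.9912 across compounds. On the first principal component 1 library, SW-138 replicate 2, lay at 39.08 and the others from -24.05 to 5.88. Replicates differed by more than counting noise in every pair, and the 6 libraries were kept as separate samples.

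The 50 mRNAs together differed more among the SW-113 libraries than between the compounds. Their summed level was 4132 CPM, 3689 CPM and 4552 CPM in SW-113 replicates 1, 2 and 3. In SW-138 replicates 1, 2 and 3 it was 4504 CPM, 4506 CPM and 4502 CPM. With TMM factors the SW-138 libraries thus lay within 5 CPM of each other, inside the range of SW-113, near its upper end. As a share of all counts, without these factors, the members made up 0.405%, 0.360% and 0.445% in SW-113 replicates 1, 2 and 3. In SW-138 replicates 1, 2 and 3 they made up 0.464%, 0.465% and 0.452%, so every SW-138 library lay above every SW-113 library. The means were 4124 ± 432 CPM (SD, n = 3) and 4504 ± 2.05 CPM. The small SD in SW-138 belongs to the total, and some of its parts differed more, in opposite directions. Centromere and kinetochore genes summed to 428 CPM, 462.5 CPM and 431 CPM in SW-138 replicates 1, 2 and 3. Condensin, topoisomerase and chromosome surface genes summed to 1473 CPM, 1445.5 CPM and 1433 CPM there. No test was made of this sum. The difference in means was 379.6 CPM, and 162 CPM without SW-113 replicate 2 and 593 CPM without SW-113 replicate 3. With scaling by library total alone it was 571 CPM.

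**Figure D1:**
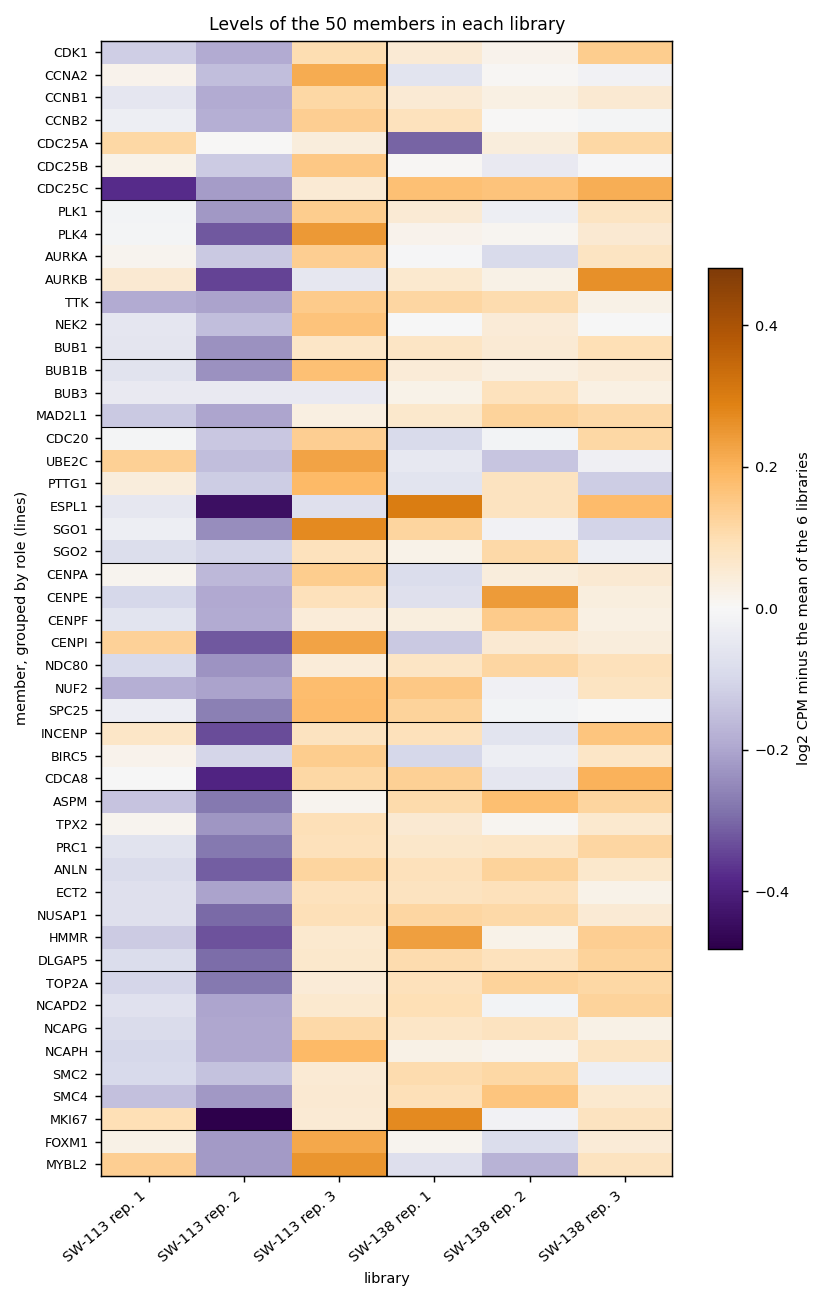
Colour gives each member's log2 CPM minus its mean over the 6 libraries, with libraries as columns, members as rows and horizontal lines between roles. The column of SW-113 replicate 2 is the lowest of the 6 for 47 of 50 members, and that of SW-113 replicate 3 lies above the mean for 47.

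The SW-113 libraries kept much the same order in most members. SW-113 replicate 2 was the lowest of the 6 libraries for 47 of 50 members, against 18.8% of all tested genes. The exceptions were CDC25A, CDC25C and BUB3. SW-113 replicate 3 was the highest SW-113 library for 45 members, against 32.7% of all tested genes, and the highest of all 6 for 24. The median member stood 0.21 below its own mean (log2) in SW-113 replicate 2 and 0.10 above it in SW-113 replicate 3, and between 0.04 and 0.06 above it in the SW-138 libraries. SW-113 replicate 2 was also the most deeply sequenced library, and whether depth had a part was not tested. With every library thinned to the smallest total, the difference in summed level was 384 CPM. Random thinning keeps the scaled levels of well-counted genes nearly the same, so it cannot decide this.

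The coefficient of variation (SD over mean, n = 3) was larger in SW-113 than in SW-138 for 47 of the 50 members, against 41.3% of all tested genes. Its median over the members was 11.3% in SW-113 and 3.90% in SW-138, where all tested genes had 6.68% and 7.92%. CDC25A, BUB3 and CENPE were the exceptions. BUB3, which binds BUB1 and BUB1B and recruits them to kinetochores, varied least in SW-113, at 218 CPM in each of its 3 libraries, and stood at 228 CPM, 238 CPM and 229 CPM in SW-138 replicates 1, 2 and 3.

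Between the compounds, 1 of the 50 members passed the test, ASPM, which was higher in SW-138. Of all 16905 tested genes 466 were higher, 2.76%, and 687 were lower, 4.06% (edgeR's quasi-likelihood test, Benjamini-Hochberg adjusted p under 0.05 over all genes). DESeq2 called 5 members higher (ASPM, ESPL1, HMMR, SMC4 and TOP2A), against 3.67% of all genes, and limma-voom called ASPM, against 2.74%. No member was lower by edgeR, by DESeq2, which called 4.35% of all genes lower, or by limma-voom, which called 3.93%, and 0 were lower at an unadjusted p under 0.05, as were 12.3% of all genes. At that unadjusted level 10 of the 50 members were higher, a larger share than the 10% of all genes. Without SW-113 replicate 2 this number was 3, against 7.63% of all genes. Without SW-113 replicate 3 it was 25, against 7.81%. Every SW-138 library lay above every SW-113 library for 9 of the 50 members, against 12.4% of all genes. The reverse held for 0 members, against 15.4%.

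The members' differences were small and mostly above zero. Log2 fold changes ran from -0.14 to 0.37 with a median of 0.11, where the median of all tested genes was 0.01. They were above zero for 39 of 50 members (78%), and for 51.5% of all genes. Without SW-113 replicate 2 the median was 0.04 and 28 members were above zero. Without SW-113 replicate 3 these were 0.19 and 47. With scaling by library total alone, which moved the median of all genes to 0.07, the members' median was 0.18 and 46 were above zero, since CCNA2, CDC25B, AURKA, SGO1, CENPI, BIRC5 and FOXM1 changed sign. The median standard error of a member was 0.08.

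**Figure D2:**
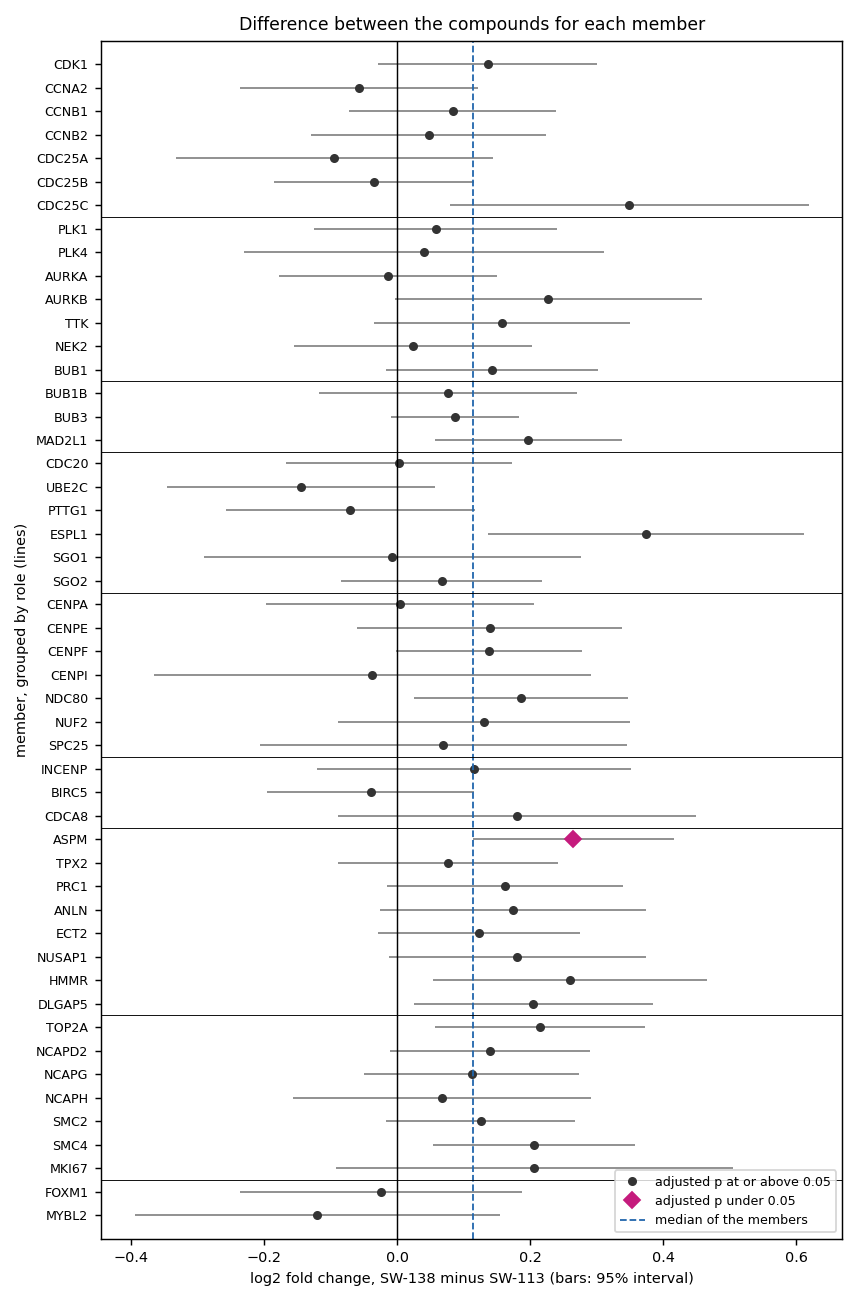
Points give each member's log2 fold change, SW-138 minus SW-113, with the 95% interval as a bar, zero as a solid line and the members' median (0.11) as a dashed line. ASPM alone has an adjusted p under 0.05, and the points of the spindle and cytokinesis group and of the condensin group lie to the right of zero, though most of their intervals cross it.

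Spindle and cytokinesis genes lay furthest to the higher side. All 8 had log2 fold changes above zero, with a median of 0.18, and 1 passed, against the background of 2.76%. ASPM (ENSG00000066279, GRCh38 chromosome 1, 197084128 to 197146694), which focuses spindle poles and whose loss causes microcephaly, was at 162 CPM, 147 CPM and 180.1 CPM in SW-113 replicates 1, 2 and 3. In SW-138 replicates 1, 2 and 3 it was at 192 CPM, 201 CPM and 194 CPM. Every SW-138 library was above every SW-113 library. ASPM was thus 1.20-fold higher, a log2 fold change of 0.26 ± 0.07 (SE; 95% interval 0.11 to 0.42), with adjusted p = 0.0493 (edgeR, Benjamini-Hochberg).

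The ASPM call was at the edge of the threshold. It passed in 1 of 6 fits that left out a library, that without SW-113 replicate 3 (adjusted p = 0.0411, edgeR), and the adjusted p was 0.0532 without SW-138 replicate 2 and 0.157 without SW-113 replicate 2. After length and GC trends were taken out its log2 fold change was 0.18 and the adjusted p 0.182 (edgeR).

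Other spindle and cytokinesis genes did not pass. HMMR, a microtubule-binding hyaluronan receptor, was at 47.8 CPM, 41.5 CPM and 54.3 CPM in SW-113 and 61.5 CPM, 52.9 CPM and 57.4 CPM in SW-138 (0.26 ± 0.09, SE; adjusted p = 0.125, edgeR). The groups overlapped, since SW-138 replicate 2 lay below SW-113 replicate 3. DLGAP5, which stabilises kinetochore microtubules, had groups that did not overlap (0.20 ± 0.08), as the lowest SW-138 library was at 55.5 CPM and the highest SW-113 library at 54.6 CPM. NUSAP1, a microtubule bundler, was at 0.18 ± 0.09, and ANLN, the cytokinetic ring scaffold, at 0.17 ± 0.09. PRC1, which bundles the central spindle, stood at 0.16 ± 0.08, ECT2, which activates RhoA at the cleavage site, at 0.12 ± 0.07, and TPX2, the activator of Aurora A, at 0.08 ± 0.07.

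Condensin, topoisomerase and chromosome surface genes were also above zero in 7 of 7, with a median of 0.14, and 0 passed. TOP2A, which untangles sister chromatids, was at 326 CPM, 289 CPM and 361 CPM in SW-113 and at 372 CPM, 382 CPM and 379 CPM in SW-138. The groups did not overlap, and the log2 fold change was 0.21 ± 0.07 (SE; interval 0.06 to 0.37; adjusted p = 0.115, edgeR). SMC4, a condensin ATPase, was close to it at 0.21 ± 0.07, with SW-138 above SW-113 in every library. Its partner SMC2 stood at 0.13 ± 0.06, and the condensin I subunits NCAPD2, NCAPG and NCAPH at 0.14 ± 0.07, 0.11 ± 0.07 and 0.07 ± 0.10, all with overlapping libraries.

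MKI67 encodes the Ki-67 antigen, which coats mitotic chromosomes and is the usual stain for dividing cells. It was at 206 CPM, 138 CPM and 199.7 CPM in SW-113 replicates 1, 2 and 3 and at 233 CPM, 190.2 CPM and 203 CPM in SW-138. SW-113 replicate 2 stood far below the other libraries of both compounds, which overlapped. The log2 fold change was 0.21 ± 0.13 (SE; interval -0.09 to 0.50; adjusted p = 0.399, edgeR), and it was 0.04 without SW-113 replicate 2.

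Cyclins, CDK1 and the CDC25 phosphatases had 4 of 7 log2 fold changes above zero, a median of 0.05, and 0 passed. CDK1, the kinase that starts mitosis, was at 58.1 CPM, 55.3 CPM and 67.5 CPM in SW-113 and at 65.3 CPM, 63.8 CPM and 69.6 CPM in SW-138. CCNB1, the cyclin that activates it at mitotic entry, was at 112 CPM, 101.9 CPM and 126 CPM in SW-113 and at 120.4 CPM, 118.5 CPM and 121 CPM in SW-138. CCNA2, the cyclin of S phase and G2, was at 82.5 CPM, 73.4 CPM and 94.4 CPM in SW-113 and at 78.1 CPM, 81.8 CPM and 80.6 CPM in SW-138. In each the compounds overlapped, and the SW-138 libraries were closer to each other than the SW-113 libraries were. The log2 fold changes were 0.14 ± 0.07 (SE; interval -0.03 to 0.30), 0.08 ± 0.07 (-0.07 to 0.24) and -0.06 ± 0.08 (-0.24 to 0.12) for CDK1, CCNB1 and CCNA2. Their adjusted p-values were 0.32, 0.534 and 0.725 (edgeR). CCNB2, the other B-type cyclin, stood at 0.05 ± 0.08.

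The CDC25 phosphatases, which remove the inhibitory phosphates from CDKs, did not go one way. CDC25C was at 4.42 CPM, 4.94 CPM and 5.95 CPM in SW-113 and at 6.45 CPM, 6.42 CPM and 6.63 CPM in SW-138, with no overlap (0.35 ± 0.12, SE; interval 0.08 to 0.62; adjusted p = 0.115, edgeR). Its exons overlap those of FAM53C on the other strand, which had 54.6 CPM, and the strand setting of the counting is not given in the sources used here, so its reads may not be separate. CDC25A, which acts from G1 onwards, was at 13.95 CPM, 12.9 CPM and 13.2 CPM in SW-113 and at 10.4 CPM, 13.3 CPM and 13.96 CPM in SW-138. SW-138 replicate 1 alone was low, and the log2 fold change was -0.09 ± 0.11. CDC25B stood at -0.03 ± 0.07. Exons of CCNA2, SGO2, NUF2, ANLN, NCAPD2, NCAPG, SMC4 and FOXM1 likewise overlap a tested gene on the other strand, in each case one with fewer counts than the member.

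Among the mitotic kinases 6 of 7 log2 fold changes were above zero, the median was 0.06 and 0 passed. PLK1, the Polo kinase of mitotic entry and spindle assembly, was at 94.2 CPM, 81.4 CPM and 105 CPM in SW-113 and 98.4 CPM, 93.2 CPM and 100.2 CPM in SW-138. AURKA, the Aurora kinase of spindle poles, was at 58.4 CPM, 52.8 CPM and 63.5 CPM in SW-113 and 57.6 CPM, 54.3 CPM and 61.02 CPM in SW-138. AURKB, the Aurora kinase of the chromosomal passenger complex, was at 28.6 CPM, 21.7 CPM and 26.6 CPM in SW-113 and 28.7 CPM, 28.1 CPM and 33.1 CPM in SW-138. In PLK1 and AURKA the SW-138 libraries sat inside the SW-113 range, while in AURKB only SW-113 replicate 1 reached them. The log2 fold changes of PLK1, AURKA and AURKB were 0.06 ± 0.08 (SE; interval -0.12 to 0.24), -0.01 ± 0.07 (-0.18 to 0.15) and 0.23 ± 0.10 (-0.003 to 0.46), with adjusted p-values of 0.727, 0.932 and 0.222 (edgeR). TTK and BUB1, kinases of the spindle checkpoint, stood at 0.16 ± 0.09 and 0.14 ± 0.07. PLK4, the kinase of centriole duplication, and NEK2, which splits centrosomes, stood at 0.04 ± 0.12 and 0.02 ± 0.08.

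The other spindle checkpoint genes MAD2L1, BUB3 and BUB1B were above zero, and 0 passed. MAD2L1, whose protein MAD2 sequesters CDC20, was at 63.7 CPM, 60.7 CPM and 71.2 CPM in SW-113 and 72.8 CPM, 76.1 CPM and 75.4 CPM in SW-138, with no overlap (0.20 ± 0.06, SE; adjusted p = 0.0937, edgeR). BUB3 had no overlap either, at 0.09 ± 0.04, and BUB1B, which encodes BubR1, stood at 0.08 ± 0.09. The chromosomal passenger genes CDCA8 (borealin), INCENP and BIRC5 (survivin), which carry Aurora B to centromeres, stood at 0.18 ± 0.12, 0.12 ± 0.11 and -0.04 ± 0.07, with overlapping libraries.

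Genes of anaphase and cohesin release split around zero, 3 above and 3 below, with a median of -0.002, and 0 passed. ESPL1 encodes separase, the protease that cuts cohesin, and had the largest log2 fold change of the members. It was at 18.6 CPM, 14.2 CPM and 18.4 CPM in SW-113 and 23.8 CPM, 20.4 CPM and 21.9 CPM in SW-138. The groups did not overlap (0.37 ± 0.11, SE; interval 0.14 to 0.61), and the adjusted p was 0.0611 (edgeR). After length and GC trends were taken out ESPL1 was the 1 member called.

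UBE2C, the ubiquitin-conjugating enzyme of the anaphase-promoting complex, had the lowest log2 fold change. It was at 47.99 CPM, 39.3 CPM and 51.1 CPM in SW-113 and 42.3 CPM, 39.8 CPM and 43.01 CPM in SW-138, all within the SW-113 range (-0.14 ± 0.09, SE; adjusted p = 0.376, edgeR). PTTG1 (securin), which holds separase inactive, stood at -0.07 ± 0.08 and CDC20, the coactivator of the anaphase-promoting complex, at 0.003 ± 0.08. The shugoshin genes SGO1 and SGO2, which protect centromeric cohesin, stood at -0.01 ± 0.13 and 0.07 ± 0.07.

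Centromere and kinetochore genes had 6 of 7 values above zero, a median of 0.13, and 0 passed. NDC80, the microtubule-binding subunit of the outer kinetochore, was at 28.8 CPM, 26.3 CPM and 31.8 CPM in SW-113 and 32.5 CPM, 33.5 CPM and 32.8 CPM in SW-138, with no overlap (0.19 ± 0.07, SE; adjusted p = 0.157, edgeR). Its partners NUF2 and SPC25 stood at 0.13 ± 0.10 and 0.07 ± 0.12. CENPE, the kinetochore kinesin that brings chromosomes to the metaphase plate, and the large scaffold CENPF were both at 0.14, with standard errors of 0.09 and 0.06. CENPA, the centromeric histone, stood at 0.004 ± 0.09 and CENPI, of the inner kinetochore, at -0.04 ± 0.15.

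Both transcription factor genes had log2 fold changes below zero, and 0 passed, with libraries that overlapped. FOXM1, an activator of G2 and mitosis genes, was at 66.5 CPM, 56.2 CPM and 76.2 CPM in SW-113 and 66.1 CPM, 61.8 CPM and 67.6 CPM in SW-138. MYBL2, which encodes B-Myb, was at 15.9 CPM, 12.4 CPM and 17.3 CPM in SW-113 and 13.7 CPM, 12.8 CPM and 15.3 CPM in SW-138. For both, SW-113 replicate 2 was the lowest and SW-113 replicate 3 the highest library, with the SW-138 libraries between. This order of the SW-113 libraries was that of most members. Log2 fold changes were -0.02 ± 0.10 (SE; interval -0.24 to 0.19; 0.039 with library total alone) and -0.12 ± 0.12 (-0.39 to 0.15), with adjusted p-values of 0.907 and 0.598 (edgeR).

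Levels between genes were compared as CPM per kilobase of the longest coding transcript in GENCODE release 29, which understates a gene whose shorter transcripts are the ones made. Ordered by the mean of all 6 libraries, SMC4 was the highest at 67.9 ± 6.88 CPM per kilobase (SD, n = 3) in SW-113 and 78.3 ± 2.84 in SW-138. TOP2A followed at 56.5 ± 6.27 and 65.6 ± 0.890, and CCNB1 at 52.2 ± 5.52 and 55.3 ± 0.580. UBE2C, at 50.5 ± 6.69 and 45.6 ± 1.85, and CDC20, at 47.95 ± 4.56 and 48.03 ± 3.48, were next. In SW-113 each of these differed from the next by less than the sum of their SDs. In SW-138 SMC4, TOP2A and CCNB1 each exceeded the next by more than that sum, while CDC20, TPX2 and UBE2C, in that order there, differed by less. On the mean of all 6 libraries the lowest were ESPL1, CDC25C and CENPI, at 2.95, 2.73 and 2.16 CPM per kilobase, and in SW-138 alone CDC25A lay just below ESPL1. FOXM1 and MYBL2 ranked 21 and 42 of 50.

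**Figure D3:**
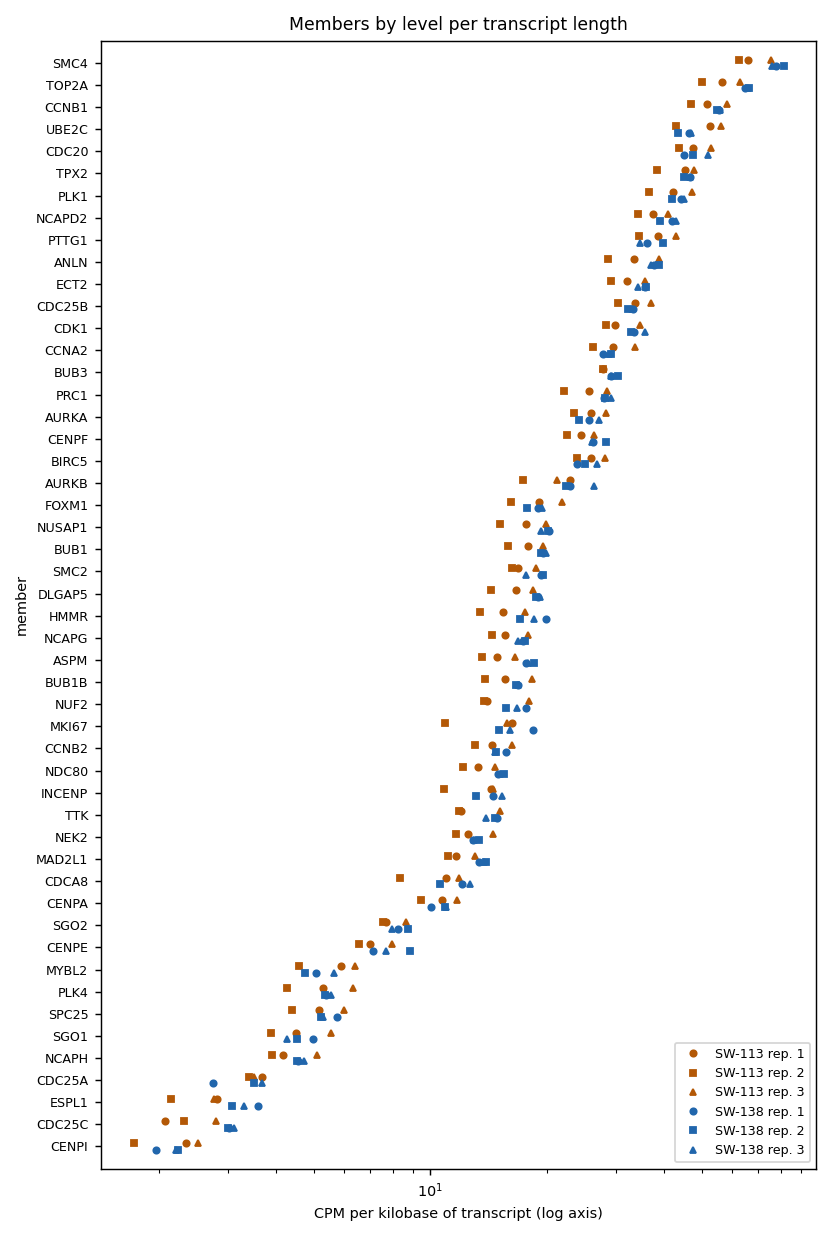
Points give each member's CPM per kilobase of transcript in each library on a log axis, with members ordered by their mean, compounds by colour and replicates by marker. Levels run from SMC4, at 67.9 in SW-113, to CENPI, at 2.19, and for most members SW-113 replicate 2 is the leftmost point.

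Transcript length moved with the difference between the compounds. In all protein-coding genes tested, the median log2 fold change was -0.16 in the 10% with the shortest transcripts and 0.04 in the 10% with the longest. The 25 members at or above the members' median length of 3374.5 bases had a median of 0.14, and protein-coding genes that long had 0.03. The 25 shorter members had a median of 0.06 and shorter protein-coding genes -0.05. ASPM (10887 bases) and ESPL1 (6623 bases) are long, and UBE2C and PTTG1, at 914 and 1070 bases, are among the shortest members. Other members did not follow their length, as AURKB (1254 bases, 0.23) and CDC25C (2128 bases, 0.35) are short. MKI67 (12678 bases) and CENPF (10307 bases) are long and stood above zero, at 0.21 and 0.14, but did not pass. With trends in length and GC content removed the members' median was 0.07, and 37 of 50 were above zero, as were 49.3% of all genes.

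**Figure D4:**
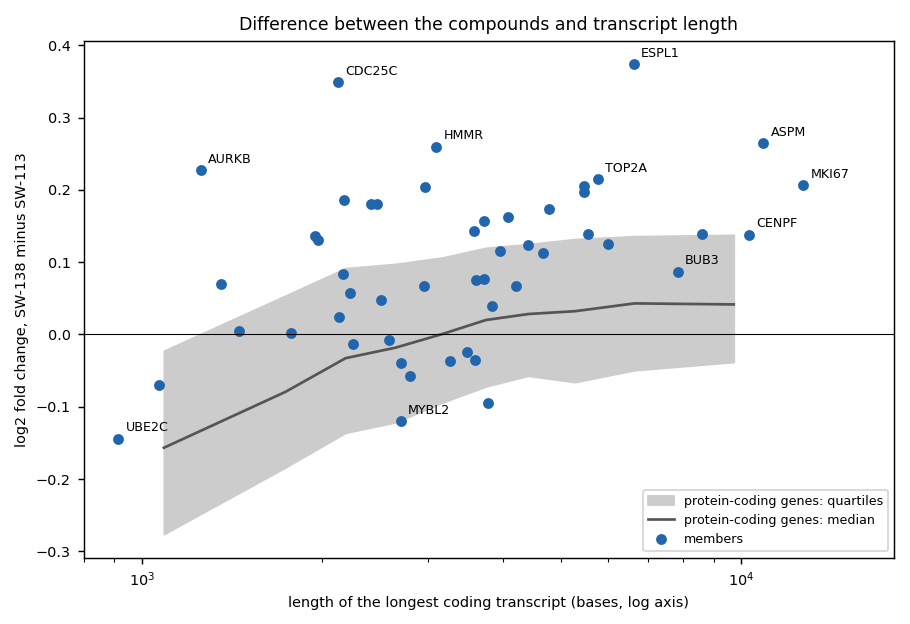
Blue points give the members' log2 fold changes (SW-138 minus SW-113) against transcript length on a log axis. The grey line and band give the median and quartiles of all tested protein-coding genes in 10 equal bins by length, and most members lie above the line at both ends.

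Other genes of the same pathways were taken from lists set down with the members. Of all tested genes 6.82% passed in either direction. By edgeR, of 12 mitotic kinesins 1 was higher, KIF18A, which dampens chromosome movement (0.40 ± 0.07, SE), and 0 were lower, with a median of 0.20.  Of 29 other centromere and kinetochore genes 1 was higher, the rod-complex gene KNTC1 (0.45 ± 0.06), and 0 were lower, with a median of 0.04. KIF18A and KNTC1 passed in all 6 fits that left out a library. Of 28 other G2 and mitosis transcripts 1 was higher, the cytokinesis kinase gene CIT (0.42 ± 0.10), and 0 were lower, with a median of 0.08. Of those 6 fits CIT passed only in that without SW-138 replicate 2. DESeq2 called these 3 and, in the same lists, also KIF2C, CENPC and DEPDC1 as higher and CKS2 as lower, while limma-voom called the same 3 as edgeR. At an unadjusted p under 0.05 (edgeR), 5 of the 12 kinesins were higher and 0 lower. Of the 29 centromere and kinetochore genes 4 were higher and 0 lower, and of the 28 other transcripts 8 and 2. Of all genes 10% were higher and 12.3% lower.

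The large mitotic complexes and the regulators of these promoters had few calls. For 17 subunits and regulators of the anaphase-promoting complex 0 passed and the median was -0.03. For 13 cohesin genes 0 passed and the median was 0.06, and for the 3 condensin II genes 0 passed and the median was 0.09. At an unadjusted p under 0.05 (edgeR), 5 of the 17 genes of the anaphase-promoting complex were lower, where 12.3% of all genes were. At that level 2 of the 13 cohesin genes and 1 of the 3 condensin II genes were higher, where 10% of all genes were. DESeq2 and limma-voom called 0 genes of these 3 lists. Of 14 subunits of MuvB, E2F, pocket protein and NF-Y complexes, RBL1, which encodes the DREAM subunit p107, was higher (0.26 ± 0.07) and 0 were lower, with a median of -0.01. Of the 6 fits that left out a library RBL1 passed only in that without SW-138 replicate 3.

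Of 9 tested regulators of the step from G2 into mitosis, some of which restrain it (WEE1, PKMYT1, CHEK1) and some of which promote it (MASTL, ENSA, ARPP19), 0 were higher and CDKN1A, which encodes the CDK inhibitor p21, was lower. It was at 160 CPM, 182 CPM and 159 CPM in SW-113 and 117 CPM, 127 CPM and 130 CPM in SW-138 (-0.42 ± 0.06, SE; adjusted p = 0.00602, edgeR). The groups did not overlap, SW-113 replicate 2 had the highest level of the 6 libraries, and the call held in all 6 fits that left out a library. WEE1, the kinase that opposes CDC25, stood at 0.16. Whether the CDKN1A level has a part in that of the members was not tested.

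By edgeR, of 24 S phase genes 3 were higher, the replicative helicase genes MCM2 (0.25 ± 0.05, SE), MCM3 (0.30 ± 0.06) and MCM6 (0.23 ± 0.05), and 1 was lower, the DNA clamp gene PCNA (-0.22 ± 0.05), with a median of 0.11. The list's percentage called was 16.7%, against 6.82% of all genes. DESeq2 called these 4 and also POLA1, PRIM1 and RRM1, all higher. Of the 6 fits that left out a library, MCM2 and MCM6 passed in 2, those without SW-138 replicate 1 or 2, and MCM3 and PCNA in 1, that without SW-138 replicate 2. PCNA also did not pass with scaling by library total alone or with trends in length and GC content removed. At an unadjusted p under 0.05 (edgeR), 9 of the 24 S phase genes were higher and 1 lower, against 10% and 12.3% of all genes.

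The low position of SW-113 replicate 2 was seen in lists that share no gene with the members. Summed levels of the mitotic kinesins were 488 CPM, 430.5 CPM and 540.2 CPM in SW-113 replicates 1, 2 and 3 and 545 CPM, 547 CPM and 558 CPM in SW-138. Those of the other G2 and mitosis transcripts were 1818 CPM, 1664 CPM and 1974 CPM in SW-113 and 1918 CPM, 1883 CPM and 1921 CPM in SW-138. The S phase genes, which rise earlier in the cycle, summed to 1523 CPM, 1416 CPM and 1609 CPM in SW-113 and 1612 CPM, 1649 CPM and 1698 CPM in SW-138. In all of these SW-113 replicate 2 was lowest and SW-113 replicate 3 highest of the SW-113 libraries. The anaphase-promoting complex list was at 940.4 CPM, 949.8 CPM and 976 CPM in SW-113 and 903 CPM, 948 CPM and 939.7 CPM in SW-138, without a low SW-113 replicate 2.

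**Figure D5:**
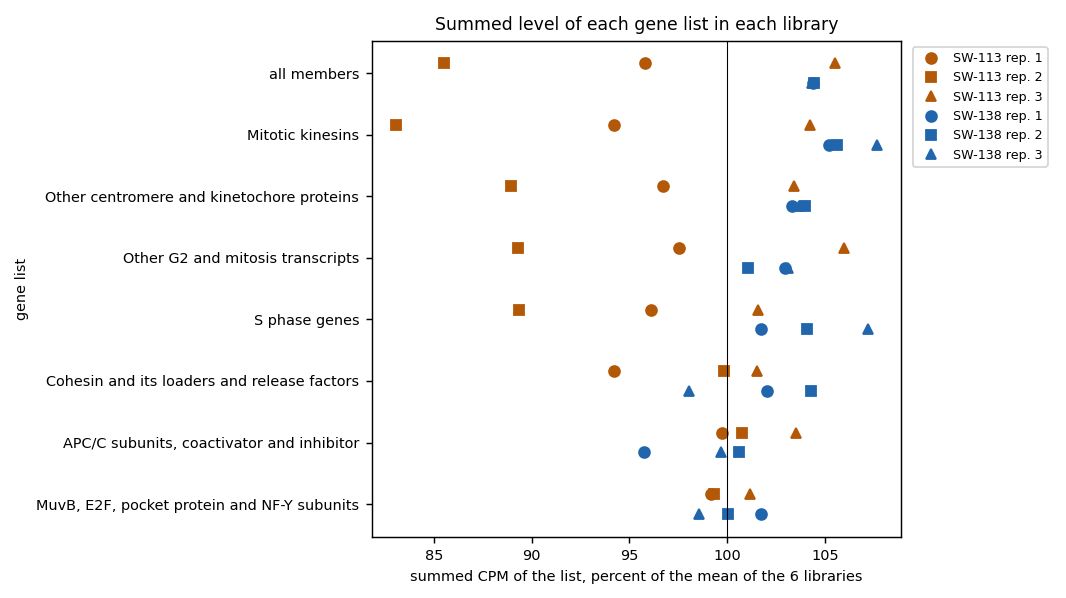
Points give the summed CPM of each gene list in each library as a percent of the mean of the 6 libraries, with compounds by colour and replicates by marker. SW-113 replicate 2 stands at 85.5% for the members and is the lowest point for the kinesin, other kinetochore, other G2 and mitosis and S phase lists, but not for those of the anaphase-promoting complex, cohesin and promoter-binding complexes.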

How the data were processed

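The authors deposited 1 table of expected counts per gene, which are estimates that need not be whole, with 1 column per library matched by name to the sample labels. Per the submitters' processing notes, which give neither role nor order, the tools were RSEM 1.3.3, Bowtie2 2.5.4, Trimmomatic 0.39 and DESeq2 1.42.0, and the build was GRCh38. Neither the annotation nor the strand setting is given in the sources used here. Members and gene lists were chosen with earlier results of these data known.

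Counts were rounded to whole numbers, genes kept by edgeR's filterByExpr (16905), and compounds compared as SW-138 minus SW-113 with edgeR 4.0.16 (quasi-likelihood test, TMM factors, no block, Benjamini-Hochberg over all tested genes at 0.05). Standard errors and 95% intervals used limma-voom (limma 3.58.1). The biological coefficient of variation was 7.56%. CPM used TMM-scaled totals. Positions and transcript lengths came from GENCODE release 29 for GRCh38, promoters from RefSeq. Named genes were all 50 members, with values in every library for those past the threshold, the 3 highest and 3 lowest log2 fold changes and 10 set genes. HMMR, MAD2L1, BUB3 and NDC80 were also given so after their values were seen. Of other lists, up to 4 genes past the threshold were named, and WEE1 and the genes called by DESeq2 alone were named after their values were seen. DESeq2 1.42.0, other scalings and filters, a replicate block, left-out libraries, thinning and removal of length and GC trends were alternatives. The fits were tested on simulated data. There edgeR recovered 18 of 50 genes given a 1.25-fold change and 40 of 48 given a 2-fold change. Small differences can thus go uncalled. The 1.25-fold change was the smallest simulated, and most members had smaller ones, so recovery at their sizes was not tested. R was version 4.3.3 and figures were drawn with matplotlib.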

Additional observations from a re-analysis of the deposited data

How the results depend on the processing

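Over all genes 1153 differed (466 higher, 687 lower). Scaling by library total alone turned the split to 923 higher and 377 lower. Keeping every gene with 1 count in 1 library gave 2060 genes, the replicate block 2363, and leaving out single libraries 303 to 1616. Members higher in SW-138 were 1 in the report (2.76% of all genes) and 4 with library total alone (5.46%). The looser filter gave 9 (3.15%), the filter at 5 CPM on average 2 (5.12%) and DESeq2 5 (3.67%). The replicate block gave 9 (6.47%), thinning 0 (2.78%) and leaving out single libraries 0 to 2 (0.858% to 4.67%). No member was lower in any of these, where 0.886% to 7.51% of all genes were. Beside ASPM, the block and the looser filter each called AURKB, DLGAP5, ESPL1, HMMR, MAD2L1, MKI67, SMC4 and TOP2A.

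Same-numbered libraries had correlations of deviations of 0.0492, 0.206 and 0.0512, not all above 0.1. Not every library correlated best with its own number. The labels do not say whether same-numbered libraries share a culture or a day. Correlations among so few libraries cannot settle it. They were not treated as pairs in the report, and whether they are pairs is not known. The members' median ran from 0.04 to 0.19 over all settings. Both ends came from leaving out an SW-113 library. The SD between replicates of the median member's deviation, pooled over the compounds, was 0.11.

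Members near zero changed sign. With library total alone these were CCNA2 (0.0071), CDC25B (0.029), AURKA (0.050), SGO1 (0.058), CENPI (0.026), BIRC5 (0.024), FOXM1 (0.039). With upper quartile scaling this was SGO1 (0.0019), with the filter at 5 CPM SGO1 (0.0025) and with limma-voom SGO1 (0.017). With length and GC trends removed they were PLK4 (-0.011), SGO2 (-0.044), and with thinning AURKA (0.00074), CENPA (-0.0015). Without single libraries the log2 fold changes ran from -0.14 to 0.041 for CCNA2, -0.031 to 0.13 for CCNB2, -0.17 to 0.027 for CDC25A, -0.10 to 0.036 for CDC25B, -0.035 to 0.15 for PLK1, -0.10 to 0.19 for PLK4, -0.082 to 0.053 for AURKA, -0.046 to 0.12 for NEK2, -0.017 to 0.19 for BUB1B, -0.063 to 0.075 for CDC20, -0.15 to 0.0086 for PTTG1, -0.13 to 0.14 for SGO1, -0.076 to 0.079 for CENPA, -0.19 to 0.073 for CENPI, -0.042 to 0.19 for SPC25, -0.011 to 0.19 for INCENP, -0.10 to 0.023 for BIRC5, -0.014 to 0.14 for TPX2, -0.015 to 0.19 for NCAPH, -0.13 to 0.087 for FOXM1. The cause of these shifts was not tested. Every member had at least 170 counts in each library, and each group had 3 libraries.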
